A study of Homo sapiens with 2 samples.

Results

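The mitochondrial ribosomal protein genes are the nuclear genes named MRPL or MRPS, whose products build the large and the small subunit of the ribosome inside mitochondria. They were described here in A549 cells, a human lung cancer cell line, in 2 RNA-seq libraries made 48 h after the cells received either a control siRNA or an siRNA against MILIP, a long noncoding RNA also called MAFG-AS1. Each group held 1 library, and both groups were the same line without any other stated treatment. Members were the protein-coding genes with a symbol of MRPL or MRPS, digits, and then nothing, A, B or C. This gave 78 of the 60711 rows of the table, 49 MRPL and 29 MRPS genes, and 77 of them had a mean over both libraries of at least 1 on the scale of the table. With 1 library per group no test was possible, so every difference below compares these 2 libraries and has no replicate check.

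Mitochondria keep a small genome of their own, and the messengers it encodes are translated by a dedicated ribosome. Its ribosomal RNAs come from the mitochondrial genome, whereas its proteins are encoded in the nucleus, made in the cytosol and imported. The proteins this ribosome makes are core subunits of the respiratory chain and the ATP synthase. Some mitoribosomal proteins have counterparts in bacterial ribosomes, and others are found only in mitochondria.

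Values are read counts that were scaled for each library, and where a pair of values is given the control library comes first. A difference is given as a log2 ratio of MILIP siRNA to control siRNA with 1 added to both values, and a gene was called higher or lower when this ratio passed 1.5-fold. The 95% limits beside it are Clopper-Pearson limits of the ratio without the added 1, and they cover counting error only. The control library held 20300800 reads and the MILIP siRNA library 19460956. MILIP itself went from 29.5 (588 reads) to 3.22 (64 reads), 89.1% lower, with a log2 ratio of -2.85 and limits of -3.59 to -2.82. Of 6 epithelial markers, KRT8 was at 2543 and 2875, KRT18 at 641 and 655, KRT19 at 62.1 and 122, CDH1 at 30.5 and 50.8 and EPCAM at 2.65 and 5.93, and NKX2-1, a lung lineage factor, was listed at 0. Of 10 markers of other lung and blood cell types, 5 were listed at 0 in both libraries, 4 had no value, and FOXJ1 had 0 as its control value and 1.06 after MILIP siRNA. A value of 0 means fewer than 20 reads. KRT19, CDH1 and EPCAM were thus more than 1.5-fold higher after MILIP siRNA, and the part of such a shift in the results below was not tested. In bulk RNA a change per cell and a change in the mix of cells cannot be told apart.

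Most mitochondrial ribosomal protein genes had a lower value with MILIP siRNA, and most of these differences were small. The log2 ratio was below 0 for 56 of the 77 members, which is 72.7%, against 52.2% of all 13521 genes that passed the same filter. For the cytosolic ribosomal protein genes, described further below, this share was 67.4%. The median log2 ratio of the members was -0.15, with quartiles of -0.40 and 0.01, against -0.03 for all genes, with quartiles of -0.36 and 0.29. The counting limits lay wholly below 0 for 42 members, 54.5%, against 36.7% of all genes, and wholly above 0 for 11 members, 14.3%, against 30.8% of all genes. For the other 24 members the limits included 0. Limits are narrower for genes with more reads, and the median value was 47.8 for the members against 27.8 for all genes. The part of read number in these shares was not tested.

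Large differences were not more common among the members than among all genes. By the 1.5-fold call 8 members were lower, 10.4%, where 13.8% of all genes were lower, and 1 member was higher, 1.30%, where 11.1% of all genes were higher. At 2-fold, 1 member was lower, 1.30% against 4.62% of all genes, and 0 were higher, against 3.48% of all genes. The limits lay wholly past 1.5-fold for 5 members on the lower side, against 9.22% of all genes, and for 0 on the higher side, against 6.73% of all genes. The log2 ratio was within 0.25 of 0 for 38 of the 77 members, a count given without a share of all genes to set beside it.

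**Figure D1:**
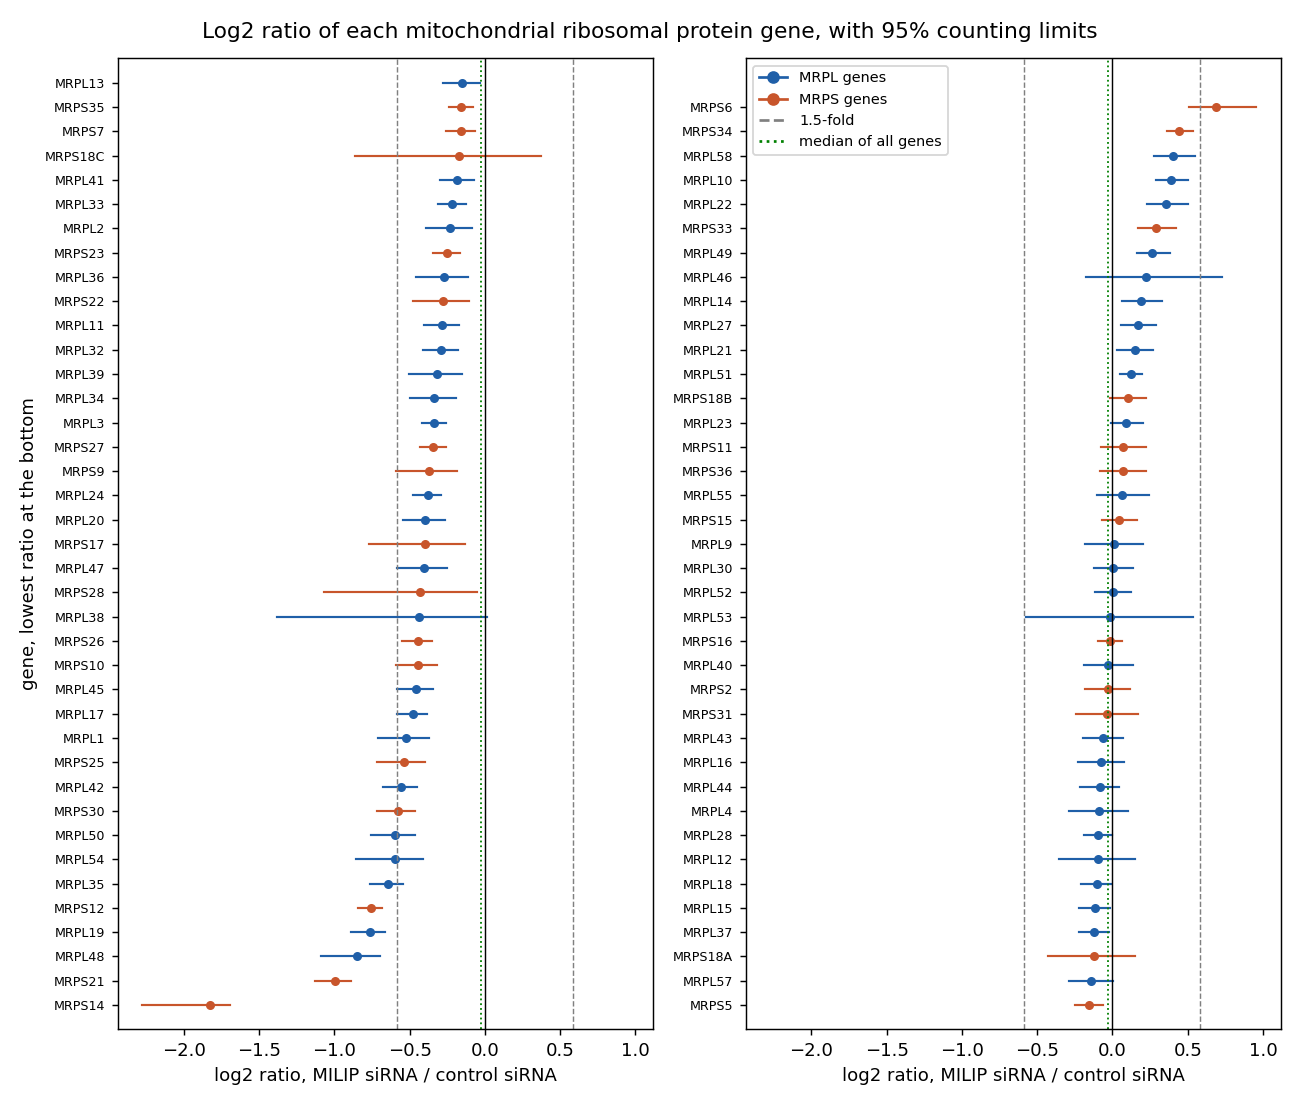
The log2 ratio (MILIP siRNA over control siRNA) of each of the 77 genes, sorted over both panels from the lowest at the lower left to the highest at the upper right. Points are the ratios, bars the 95% counting limits, dashed lines 1.5-fold and the dotted line the median of all genes. MRPS14 stands at -1.82, and MRPS6, at 0.69, is the point past 1.5-fold on the higher side.

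Added up over the 77 members, the values came to 4442 in the control library and 3915 after MILIP siRNA, 11.9% lower. These sums stand for 88685 and 77855 reads, or 0.437% of all reads (95% Clopper-Pearson interval 0.434 to 0.440) and 0.400% (0.397 to 0.403). The MRPL genes together went from 2723 to 2437, a change of -10.5%, and the MRPS genes from 1718 to 1478, a change of -14.02%. The median log2 ratio was -0.12 over 49 MRPL genes and -0.16 over 28 MRPS genes. By symbol, 35 MRPL and 21 MRPS genes had a ratio below 0. The symbols do not match the subunits in full, since MRPS30 and MRPS18A belong to the large subunit and MRPS36 to neither.

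The lowest ratio belonged to MRPS14 (ENSG00000120333), the mitochondrial counterpart of a bacterial protein in the head of the small subunit. Its gene spans chr1:175010789-175023425 (- strand, GRCh38). MRPS14 went from 24.8 (495 reads) to 6.29 (125 reads), a 3.94-fold lower value. Its log2 ratio was -1.82 with limits of -2.27 to -1.69, and 0.562% of all genes had a lower ratio. The limits of no other member reached below -1.38.

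MRPS21 (ENSG00000266472), a small subunit protein with a bacterial counterpart, followed. Its gene spans chr1:150293720-150308979 (+ strand). MRPS21 went from 85.3 (1704 reads) to 42.4 (843 reads), with a log2 ratio of -0.99 and limits of -1.13 to -0.89. MRPS12 (chr19:38930548-38933162, + strand), the counterpart of the bacterial protein at the decoding centre, went from 169 (3368 reads) to 99.4 (1977 reads). Its log2 ratio was -0.76 with limits of -0.84 to -0.68. MRPS12 had the highest control value of all 77 members, and its value with MILIP siRNA was below those of 5 other members.

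The other 5 lower members belong to the large subunit. MRPL48 (chr11:73787316-73865133, + strand), a mitochondria-specific protein of the central protuberance, the ridge at the top of the large subunit, went from 30.7 to 16.5, with a log2 ratio of -0.85 and limits of -1.09 to -0.69. MRPL19, whose bacterial counterpart sits at the interface of the subunits, went from 87.2 to 50.9, with a log2 ratio of -0.76 and limits of -0.89 to -0.66. MRPL35, which also has a bacterial counterpart, went from 87.7 to 55.9, with a log2 ratio of -0.64. For these 3 genes the limits lay below 0 throughout, and those of MRPL35 reached from -0.76 to -0.54, across the 1.5-fold line.

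MRPL54 and MRPL50, both without a bacterial counterpart, stood just past the 1.5-fold line. MRPL54 went from 21.3 (425 reads) to 13.7 (273 reads), with a log2 ratio of -0.60 and limits of -0.86 to -0.41. MRPL50 went from 48.6 (970 reads) to 31.8 (632 reads), also with a log2 ratio of -0.60 and limits of -0.76 to -0.47. Just short of the line were MRPS30, which despite its name sits in the large subunit, at 66.0 and 43.8 (log2 ratio -0.58), and MRPL42, a mitochondria-specific large subunit protein, at 79.1 and 53.6 (log2 ratio -0.55). Counting error alone spans the difference between these 4 genes, so which of them passed the line is not settled by the reads.

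The highest ratio belonged to MRPS6 (ENSG00000243927), the counterpart of a bacterial protein on the platform of the small subunit. MRPS6 went from 13.4 (268 reads) to 22.3 (443 reads), with a log2 ratio of 0.69 and limits of 0.51 to 0.95. Of its transcript, 31.9% lies in exons of another gene on the same strand. The members next to it were under 1.5-fold. MRPS34, a mitochondria-specific small subunit protein, was at 93.9 and 128 (log2 ratio 0.45, limits 0.36 to 0.54), and its log2 ratio was 0.21 once the GC trend was removed. MRPL58, a peptidyl-tRNA hydrolase that became part of the large subunit, was at 38.6 and 51.3 (0.40 as a log2 ratio). MRPL10, which anchors the stalk that recruits translation factors, was at 63.9 and 83.9 (0.39), and MRPL22, which lines the exit tunnel for the new protein chain, was at 39.2 and 50.5 (0.36). These 4 genes had limits wholly above 0. MRPS33 (47.9 and 58.7), MRPL49 (62.8 and 75.7), MRPL14 (44.6 and 51.1) and MRPL27 (56.4 and 63.7) followed with log2 ratios of 0.17 to 0.29 and limits above 0 (0.47 for MRPS33 without the GC trend), and MRPL46 (3.91 and 4.73) had a log2 ratio of 0.22 with limits from -0.17 to 0.73 that included 0.

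By subunit and bacterial counterpart, the members were put in 4 classes, with medians from -0.20 to -0.13. The 30 large subunit proteins with a bacterial counterpart had a median log2 ratio of -0.14, with 2 members lower (6.67%), MRPL19 and MRPL35. The 21 mitochondria-specific large subunit proteins had a median of -0.13, with 3 lower (14.3%), MRPL48, MRPL54 and MRPL50. Of the 16 small subunit proteins with a bacterial counterpart 15 passed the filter, with a median of -0.17, 3 lower, MRPS14, MRPS21 and MRPS12, and 1 higher, MRPS6. The 10 mitochondria-specific small subunit proteins had a median of -0.20 and 0 past 1.5-fold in either direction, from MRPS25 at 39.5 and 26.8 (log2 ratio -0.54) to MRPS34. Members past 1.5-fold thus occurred in 3 of these 4 classes. Of all genes 13.8% were lower and 11.1% higher.

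Within the large subunit, 3 smaller structures were described, each by a short list that need not hold all of its proteins. The 3 genes of the stalk, MRPL10, MRPL11 and MRPL12, had log2 ratios of 0.39, -0.29 and -0.10. Of the 6 proteins around the exit tunnel, MRPL17 (98.7 and 70.6), MRPL45 (68.5 and 49.7), MRPL47 (35.9 and 26.8) and MRPL24 (106 and 81.0) had log2 ratios of -0.48, -0.46, -0.40 and -0.38, all with limits below 0. MRPL45 is the protein that holds the mitoribosome at the inner membrane. The other 2, MRPL23 (69.5 and 74.2) and MRPL22, had ratios above 0, and the median of the 6 was -0.39. The 6 proteins listed for the central protuberance had a median of -0.07 and ran from MRPL48 at -0.85 to MRPL58 at 0.40. MRPS36, now known as a component of the 2-oxoglutarate dehydrogenase complex rather than of the ribosome, was at 33.7 and 35.3.

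The level per kb of transcript, the mean over both libraries, spanned 1.04 to 183 over the 77 members, with a median of 29.7. The length was that of a chosen transcript of each gene, and the levels and their order depend on it. For MRPL33 this transcript has 518 bases, whereas all exons of the gene together have 1539. The 5 highest levels belonged to MRPL33 (183), MRPL51 (129), MRPS12 (110), MRPS34 (108) and MRPL24 (106). MRPL33, MRPL51 and MRPL24 are large subunit proteins. By this transcript length MRPL33 had the highest level in both libraries, at 196 in the control library and 169 after MILIP siRNA. The next was MRPS12 (138) in the control library and MRPL51 (135) after MILIP siRNA, so the order below MRPL33 differed between the libraries. The 5 lowest levels belonged to MRPL38 (1.04), MRPS18C (1.44), MRPL53 (2.48), MRPS28 (4.16) and MRPL46 (4.24).

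The 5 members of lowest level all shared most of their transcript with another annotated gene. In GENCODE release 29, 7 of the 77 members had at least 50% of their transcript bases in exons of another gene, MRPL38, MRPS18C, MRPL53, MRPS28, MRPL46, MRPS18A and MRPL12. Their levels per kb ran from 1.04 to 12.8 with a median of 4.16, and those of the other 70 from 4.26 to 183 with a median of 36.0. The overlapping gene is on the opposite strand for MRPS18C (ABRAXAS1) and MRPS18A (RSPH9) and on the same strand for the other 5, as with CCDC142 for MRPL53. MRPS24 (chr7:43866558-43869893, - strand), the member that did not pass the filter, was listed at 0 in both libraries, and 85.7% of its transcript lies in exons of the readthrough gene URGCP-MRPS24. Whether counting used the strand, and how reads in shared exons were assigned, is not given in the sources used here, so the levels of these 8 genes are uncertain. The share of 50% was chosen with the levels in view. Their log2 ratios were not set apart, with a median of -0.13 against -0.15 for the other 70.

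Log2 ratios moved with base composition in all genes and in the members alike. Spearman's rho between the GC content of the transcript and the log2 ratio was 0.315 over the 77 members and 0.292 over 13398 genes, as a description across genes of the same 2 libraries. The 39 members of lowest GC content had a median log2 ratio of -0.32 with 33 below 0, and the 38 of highest GC content a median of -0.07 with 23 below 0. The 8 lower members had a median GC content of 42.9%, against 50.7% for the other 69. The part of base composition in these ratios was not tested beyond the removal of the trend, after which the median of the members was -0.18 and 8 members were lower, 6 of them among the 8 above.

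An siRNA can also act on transcripts that pair with the first bases of its guide strand. The 7 letters that pair with bases 2 to 8 of the guide of the MILIP siRNA, GACCCTA, occur once in each of the annotated MILIP transcripts of 1895 and 969 bases. They occur in the 3' UTR of 4 of the 77 members, 5.19%, against 4.82% of 12107 genes with a 3' UTR, and in the coding sequence of 2 members, 2.60%, against 6.59% of 12220 genes. The sites are shown because 2 of the 8 lower members hold them. Capitals mark the site, and the letters are those of the transcript in GENCODE release 29, 5' to 3'.
MRPL54, 3' UTR, chr19:3767548-3767565, + strand: ctttctgggtaGACCCTA
MRPS21, coding sequence across a splice junction, chromosome 1, + strand: agcgcatacagGACCCTAaacagaatcct
MRPS26, 3' UTR, chr20:3048076-3048104, + strand: gcgcaccaggaGACCCTAgagtggtttcc
MRPL14, 3' UTR, chr6:44113526-44113554, - strand: tttctggtttgGACCCTAtaagttcatcc

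The log2 ratios of the members with a 3' UTR site were -0.60 for MRPL54, -0.44 for MRPS26, -0.14 for MRPL57 and 0.19 for MRPL14, and those with a coding site -0.99 for MRPS21 and -0.17 for MRPS18C. Over all genes the median log2 ratio was -0.46 with and -0.01 without a 3' UTR site. For a coding site it was -0.34 with and -0.01 without, over 12220 genes. MRPS14, MRPL48, MRPL19, MRPS12, MRPL35 and MRPL50, the other 6 lower members, held no such site in either region. A match of 7 letters is a description, and its part in the ratios was not tested.

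The promoters of mitochondrial ribosomal protein genes are known for sites of ETS-family factors such as GABPA, of YY1 and of NRF1, factors that act on many nuclear genes for mitochondria. Promoters from 250 bases before to 50 after the start, from RefSeq (GRCh38.p14), were matched for 68 of the 77 members and searched on both strands for 4 motifs. The ETS core CCGGAAG was in 29 members, 42.6%, against 10.7% of all 27305 promoters and 19.4% of those of the genes above the filter. The YY1 core AAGATGG was in 22, 32.4%, against 6.06% and 7.60%. The NRF1 core GCATGCGC was in 6, 8.82%, against 3.27% and 5.51%, and the E-box CACGTG, the site of c-Myc with MAX, in 6, 8.82%, against 7.43% and 10.1%. In total 44 of the 68 members held at least 1 of the 4 motifs, 64.7%, against 23.9% and 35.7%.

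The place of the motifs was read from the start of the gene. Of 39 matches to the ETS core, 6 began after the start, between bases 1 and 8, and the others before it, up to 222 bases away. Of the 22 members with the YY1 core, 15 held it after the start and in the direction of the gene, with its first base between bases 7 and 36 when the start is base 1. The NRF1 core and the E-box were found before the start in each of the 6 members that held them, up to 175 and 245 bases away. The following sequences show the ETS core before the start of 3 members called lower and of MRPS34 and MRPL58, which were among the members with the highest ratios, and a YY1 and an NRF1 core for comparison. They were chosen for holding the motif. Each is 30 bases before the start in RefSeq GRCh38.p14, 5' to 3' on the strand of the gene. Capitals mark 1 match to the motif or its reverse complement. The MRPS34 window holds another match to the ETS core, left in lower case near its first base.
MRPS21, ETS, chr1:150293831-150293860, + strand: ggcgattccgtaatttccgCTTCCGGtagt
MRPL48, ETS, chr11:73787800-73787829, + strand: aatttcagaagCTTCCGGaactaaaatgat
MRPL54, ETS, chr19:3762650-3762679, + strand: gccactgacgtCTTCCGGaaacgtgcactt
MRPS34, ETS, chr16:1773135-1773164, - strand: tcttccggtgaCTTCCGGccggaccgctga
MRPL58, ETS, chr17:75012640-75012669, + strand: gaccgcggggaggaagcgcccgCCGGAAGc
MRPS12, YY1, chr19:38930722-38930751, + strand: catggacgcagCCATCTTggaccgggaaca
MRPL22, NRF1, chr5:154941038-154941067, + strand: tccagagtattGCGCATGCgtgctgtccag

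The ETS core thus stood before the RefSeq start of genes with ratios below and above 0, such as -0.99 in MRPS21 and 0.45 in MRPS34. The median log2 ratio of members with and without each motif was -0.13 and -0.16 for ETS, -0.29 and -0.13 for YY1, -0.08 and -0.16 for NRF1 and -0.14 and -0.16 for the E-box. MRPS14, MRPL19 and MRPS6 held none of the 4 motifs in this window. Of the factors themselves, NRF1 was at 23.3 and 19.8, GABPA at 39.6 and 35.5 and YY1 at 168 and 174.

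The members were set beside the most similar gene groups. Above the filter, 67.4% of the cytosolic ribosomal protein genes had a ratio below 0, against 72.7% of the members. For nuclear-encoded respiratory chain genes it was 44.0%. Limits lay wholly below 0 for 59.3% of the cytosolic genes, 54.5% of the members and 34.7% of the respiratory chain genes. A share below 0 above that of all genes was thus not particular to the members. The 86 cytosolic ribosomal protein genes above the filter, of 89, had a median log2 ratio of -0.07, with RPL26L1 higher (23.9 and 79.5, log2 ratio 1.69) and RPL18 lower (954 and 493, log2 ratio -0.95). Their summed value changed by -0.998%, against -11.9% for the mitochondrial ribosomal protein genes. As a share of all reads the cytosolic genes went from 6.72% to 6.91%, so the direction of their small change depends on the scaling, whereas the share of the members was lower as well. Nuclear-encoded respiratory chain genes were picked by a symbol pattern, a set that lacks COX4I1 and NDUFAB1. The 75 of them above the filter, of 84, had a median of 0.04. Their summed value changed by -4.61%, or from 0.879% to 0.871% of all reads. Of these, COX6B1, COX5B and ATP5PB were lower, with log2 ratios of -1.40, -0.81 and -0.68. The limits of the log2 ratio of the summed values were -0.20 to -0.17 for the members, -0.02 to -0.01 for the cytosolic and -0.08 to -0.06 for the respiratory chain genes. These intervals cover counting error only, and the groups cannot be compared against replicate error.

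**Figure D2:**
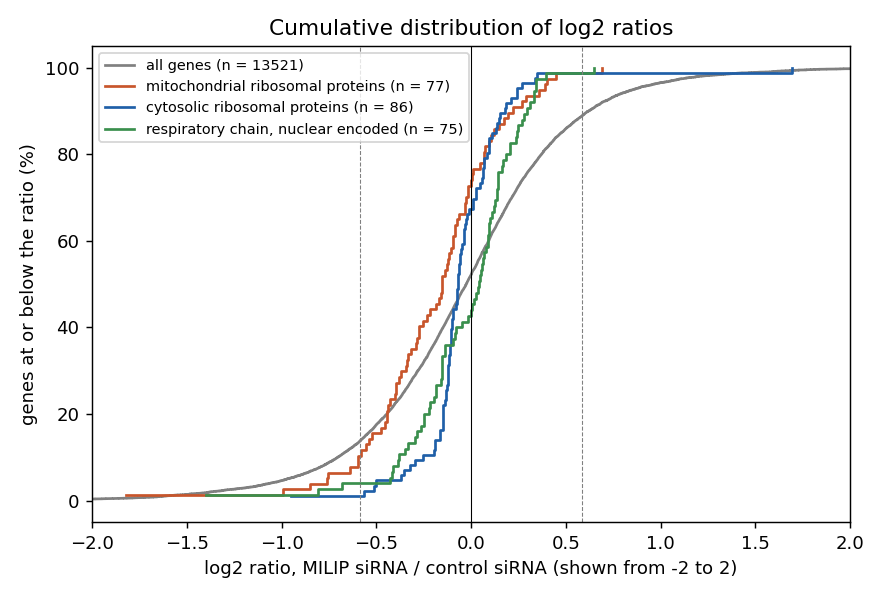
Share of genes (vertical, %) at or below each log2 ratio (horizontal, shown from -2 to 2) for all genes, mitochondrial ribosomal proteins, cytosolic ribosomal proteins and nuclear-encoded respiratory chain genes. Dashed lines mark 1.5-fold. The curve of the mitochondrial ribosomal proteins crosses 50% at -0.15 and that of all genes at -0.03.

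The other genes of mitochondrial translation were read in the same way. Of 5 mitoribosomal proteins with other names, PTCD3, a small subunit protein that binds RNA, was lower at 133 and 79.2 (log2 ratio -0.74), and DAP3, a GTP-binding small subunit protein, was lower at 116 and 76.1 (log2 ratio -0.60). AURKAIP1, CHCHD1 and GADD45GIP1 had log2 ratios of 0.10, 0.07 and 0.02. The mitochondrial ribosomal RNAs were at 530 and 418 for MT-RNR2 (log2 ratio -0.34) and at 33.1 and 35.3 for MT-RNR1 (log2 ratio 0.09).

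Of 28 mitoribosome assembly genes 5 were lower and 0 higher, with a median log2 ratio of -0.19. The lower genes were 17.9% of the group, where 13.8% of all genes were lower. They were TRMT2B, an RNA methyltransferase, at 29.3 and 8.60 (log2 ratio -1.66), MALSU1, which binds the large subunit during assembly, at 44.8 and 19.8 (-1.14), MPV17L2 at 16.7 and 7.74 (-1.02), the RNA helicase DHX30 at 142 and 81.2 (-0.80) and MTERF3 at 26.2 and 16.3 (-0.65). The highest were YBEY and DDX28, with log2 ratios of 0.39 and 0.37. Of 20 translation factors 3 were lower, 15.0% and near the share of all genes, and 0 higher, with a median of -0.07. These were the release factor MTRF1L at 35.4 and 18.7 (log2 ratio -0.89), the elongation factor TSFM at 29.1 and 16.8 (-0.75) and LRPPRC, which stabilizes mitochondrial messengers, at 473 and 289 (-0.71), and MTIF3 and MTRES1 were highest at 0.30 and 0.25.

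Of 9 genes of mitochondrial DNA transcription and replication 4 were lower, 44.4% against 13.8% of all genes, with a median log2 ratio of -0.46. The helicase TWNK was at 75.03 and 42.2 (log2 ratio -0.82), the polymerase subunit POLG2 at 24.6 and 14.1 (-0.76), the DNA-packaging factor TFAM at 181 and 116 (-0.63) and the transcription factor TFB2M at 49.0 and 31.7 (-0.61), whereas the RNA polymerase POLRMT was at 131 and 140. Of 12 nuclear regulators, PPARGC1A was listed at 0 and 2 of the other 11 were lower, 18.2% against 13.8% of all genes. They were PPARGC1B at 19.9 and 10.5 (log2 ratio -0.87) and MYC at 178 and 112 (-0.67). ATF4 and MAX were highest, with log2 ratios of 0.12 and 0.11. The 13 protein-coding genes of the mitochondrial genome had 0 past 1.5-fold and a median of -0.21. They ran from MT-ND4L (-0.57) and MT-ATP8 (-0.45) to MT-ND1 and MT-ND2 (both 0.09). MT-ATP8 held 326 and 232 reads. How reads in bases shared by neighbouring genes were assigned is not given in the sources used here. Of 11 genes of mitochondrial stress response and import, LONP1, a protease of the mitochondrial matrix, was higher at 89.9 and 207 (log2 ratio 1.19), the median was 0.02, and TOMM20 (-0.30) and TOMM40 (-0.28) were lowest and PMPCB (0.26) next to LONP1.

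**Figure D3:**
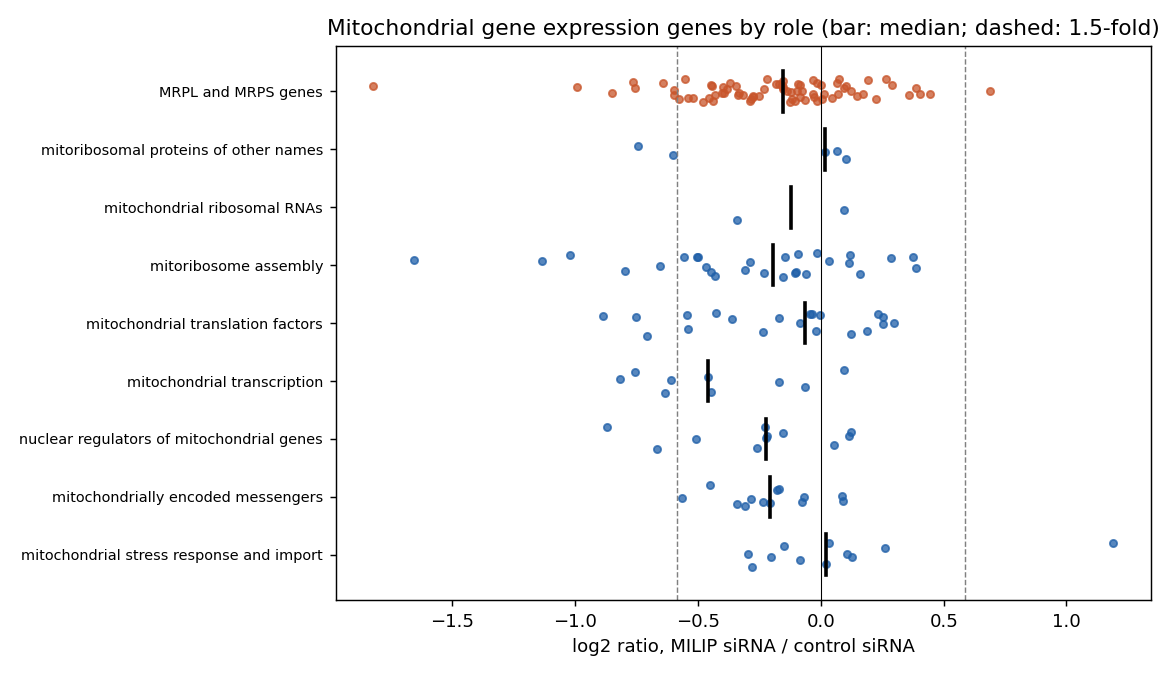
Log2 ratio (horizontal) of each gene above the filter, by role, with a bar at the median of each group and dashed lines at 1.5-fold; points are spread vertically for view. The MRPL and MRPS genes are in orange, and the genes of mitochondrial transcription have the lowest median, -0.46.

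The members lie on 21 chromosomes, and 8 of them are on chromosome 17 with MILIP. The nearest is MRPL12, a protein of the stalk, 220 kb away, which was at 13.6 and 12.7 with limits from -0.36 to 0.15 that included 0. The other 7 lie further away, the nearest of them MRPL38 at 6022 kb, with log2 ratios from -0.46 for MRPL45 to 0.40 for MRPL58. None of the 8 passed 1.5-fold with 1 added to both values. Without the added 1, MRPL38 was 1.59-fold lower, at 2.40 (48 reads) and 1.51 (30 reads). Its limits, from -1.38 to 0.02, included 0.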

How the data were processed

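RNA was sequenced from A549 cells 48 h after transfection, with 1 library per siRNA, and the groups were taken from the sample labels. The submitters' processing notes name hg38, TopHat2 2.0.12 and HTSeq 0.6.1. The annotation release, the strand setting and the scaling are not given in the sources used here. The deposited signal is a read count per gene that the authors scaled for each library. All values above 0 (100%, tolerance 0.02 steps) were whole multiples of 0.0500871 (control siRNA) or 0.0502801 (MILIP siRNA), so 1 step was taken as 1 read, and none was under 20 reads. The authors' columns of fold change, p-values, q-values and calls were not used.

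The members and gene lists were chosen with earlier results of these data known. The genes named are MILIP, every member past 1.5-fold, the 10 highest and 10 lowest ratios, the 5 highest and 5 lowest levels, members under the filter, members of the structural groups, and in each other list the 2 highest, the 2 lowest and all past 1.5-fold. NRF1, GABPA and YY1 were added for the promoter motifs after their values were seen, as were the genes named for an overlap or an siRNA site. Ensembl IDs were matched to symbols, and gene types, transcripts and exons came from GENCODE release 29. Overlaps were computed with bedtools 2.31.1, and the rest with Python 3.11.15, numpy 2.4.6, pandas 2.3.3 and scipy 1.17.1. Log2 ratios had a pseudocount of 1, which understates the change of low genes, and were kept for genes with a mean of at least 1. Alternatives were another pseudocount, 2 scalings, other filters and thresholds, removal of the GC trend, and, chosen after seeing the data, leaving out members that overlap other genes or hold the siRNA site. Tested on simulated data of 13521 genes, 94.0% of 200 genes changed 2-fold were called, as were 19 of 13321 unchanged genes. A simulated library holds counting error only.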

Additional observations from a re-analysis of the deposited data

How the results depend on the processing

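No paired analysis was possible because each group holds 1 library, and leaving out a replicate was not possible for the same reason. The median log2 ratio of the members stayed below 0 under every alternative run, between -0.18 with the GC trend removed and -0.10 with scaling by total reads, where the median of all genes was 0.02 in place of -0.03. The ratios of the 20 members with the lowest and highest values kept their sign under the other pseudocount, both scalings and the removal of the GC trend. With the GC trend removed, 8 of the 20 moved by more than their counting error, MRPL19 to -0.59, MRPS12 to -0.95, MRPL35 to -0.44, MRPL50 to -0.39, MRPL42 to -0.38, MRPS33 to 0.47, MRPL22 to 0.50 and MRPS34 to 0.21. The number of lower members was 10 with a pseudocount of 0.1 (MRPL38 and MRPS30 added), 6 under scaling by the median of ratios or by total reads (without MRPL50 and MRPL54), 8 with the GC trend removed (without MRPL35 and MRPL50, with MRPL38 and MRPS26), 8 without members that overlap other genes and 6 without members that hold the siRNA site. At 2-fold there were 1 lower and 0 higher members, and with limits wholly past 1.5-fold 5 lower and 0 higher. Over all 13521 genes 1869 were lower and 1507 higher, against 1732 and 1639 under scaling by the median of ratios and 1628 and 1743 under scaling by total reads, where higher genes outnumbered lower ones. With a pseudocount of 0.1 the counts over all genes rose as well, to 2100 lower and 1799 higher. With the GC trend removed they were 1720 and 1355, over the 13398 genes with a GC content. The median of the protein-coding genes of the mitochondrial genome moved to -0.18 under the median of ratios, -0.15 under total reads and -0.14 with the GC trend removed. Under these 2 scalings the median of all genes moved as well, from -0.03 to 0.001 and 0.02. With the GC trend removed, the median moved to -0.086 for the mitochondria-specific small subunit proteins, -0.29 for the stalk, -0.25 for the exit tunnel and -0.19 for the mitoribosomal proteins of other names. The last of these changed sign, from 0.02, as did the median of the stress response and import genes, from 0.02 to -0.003. The cause of the shifts with the GC trend removed was not tested. Without replicates, variation between cultures is unknown, and genes under 20 reads are listed at 0, which hides differences at low levels.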

Other observations

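Pseudogene copies of the family and 1 readthrough gene were looked up apart from the members. Of 81 such rows 13 had a value, 12 of them were listed at 0 in both libraries, and MRPL45P2, a pseudogene copy of MRPL45, was at 4.56 in the control library and 4.47 after MILIP siRNA. How reads that fit both a copy and its parent gene were counted is not given in the sources used here.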
